A study of Rattus norvegicus with 8 samples.

Results

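Kinesins are motor proteins that hydrolyze ATP to move along microtubules. The kinesin genes were taken as the probes whose array gene name, without the suffix "_predicted", begins with Kif and a digit or with Kifc, letter case ignored, because the array spells KIFC2 and kif13B in other ways. They came to 33 genes of the 35561 names on the array, with 47 of its 41012 probes. Of the 11 genes listed as mitotic, 9 carried a probe of that name (Kif2c, Kif4, Kif11, Kif14, Kif15, Kif20a, Kif22, Kif23 and Kifc1, 11 probes). Kif18a and Kif20b had no probe under those names. The other 24 genes (36 probes) included the transport motors, among them Kif5c. The array names Kif2 and Kif4 stand for the genes now called Kif2a and Kif4a.

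Primary thymocytes were prepared from adrenalectomized male Sprague-Dawley rats, which lack their own adrenal glucocorticoids, with the thymi of 3 animals pooled for a preparation. The cells were kept in culture for 6 hours, either untreated (4 Control arrays) or exposed to dexamethasone, a synthetic glucocorticoid, at 100 nM (4 Dex arrays). The labels number the arrays 1 to 4 in each group, whereas the study states 3 biological replicates, so p-values measure the spread between these 4 arrays, part of which may be technical. RNA was read on 1-color Agilent arrays with 60-base probes, and levels below are log2 normalized intensity, in which a difference of 1 is a doubling. A level of a probe depends on the probe, so levels are compared between arrays and not between genes.

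Kinesins of the transport group carry vesicles, organelles and protein complexes through the cytoplasm, usually away from the cell center. The Kif5 heavy chains do so together with light chains and cargo adaptors. Mitotic kinesins build and pull apart the spindle, hold chromosomes on it and finish cytokinesis, and many of their genes are transcribed mainly in dividing cells. Cortical thymocytes include dividing precursors, and glucocorticoids kill immature thymocytes by apoptosis.

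The arrays differed in detection. The software's flag for signal well above background was set for 28665 to 34472 probes on each Control array, against 24908 and 26471 on Dex 2 and Dex 1 and 33284 and 33402 on Dex 3 and Dex 4. The arrays lay on 3 slides, of which 1 held both groups (Control 1 and Dex 3), and slide and group could be told apart only there. Control 2, 3 and 4 shared a slide, and Dex 1, 2 and 4 shared another. The 6 thymocyte markers on the array, of 8 listed (Cd8b and Lck had no probe under those names), were well above background on every array. The log2 of their summed normalized intensity ran from 17.29 to 17.62 in Control and from 17.04 to 17.48 in Dex, a sum that rests mostly on the brightest probes. Of these markers 4 were lower and 2 higher in Dex. The log2 differences were -0.61 for Ptcra (limma adjusted p = 0.154, every Dex array below every Control array) and -0.59 for Rag1 (0.436, overlapping). Cd3g (-0.25), Cd8a (-0.13), Cd4 (0.14) and Cd3e (0.16) also had overlapping groups.

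Across the kinesin genes, dexamethasone was followed by a large rise of 1 transport motor, Kif5c, and by no other change that passed the test (limma, Benjamini-Hochberg adjusted over all probes, threshold 0.05, brightest probe per gene). This was 1 gene of 33, against 0.778% of all 41012 probes (319 probes; 81 with the replicate numbers as a block). Each of the 9 mitotic genes had a lower mean in Dex, with log2 differences from -0.66 to -0.20 and a median of -0.29, whereas 13 of the 24 others were lower and 11 higher (Kif21a, not above background on any array, included), with a median of -0.04. Over the whole array, 20499 of 41012 probes were lower in Dex and the median was 0.00. The difference between the classes was not tested.

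**Figure D1:**
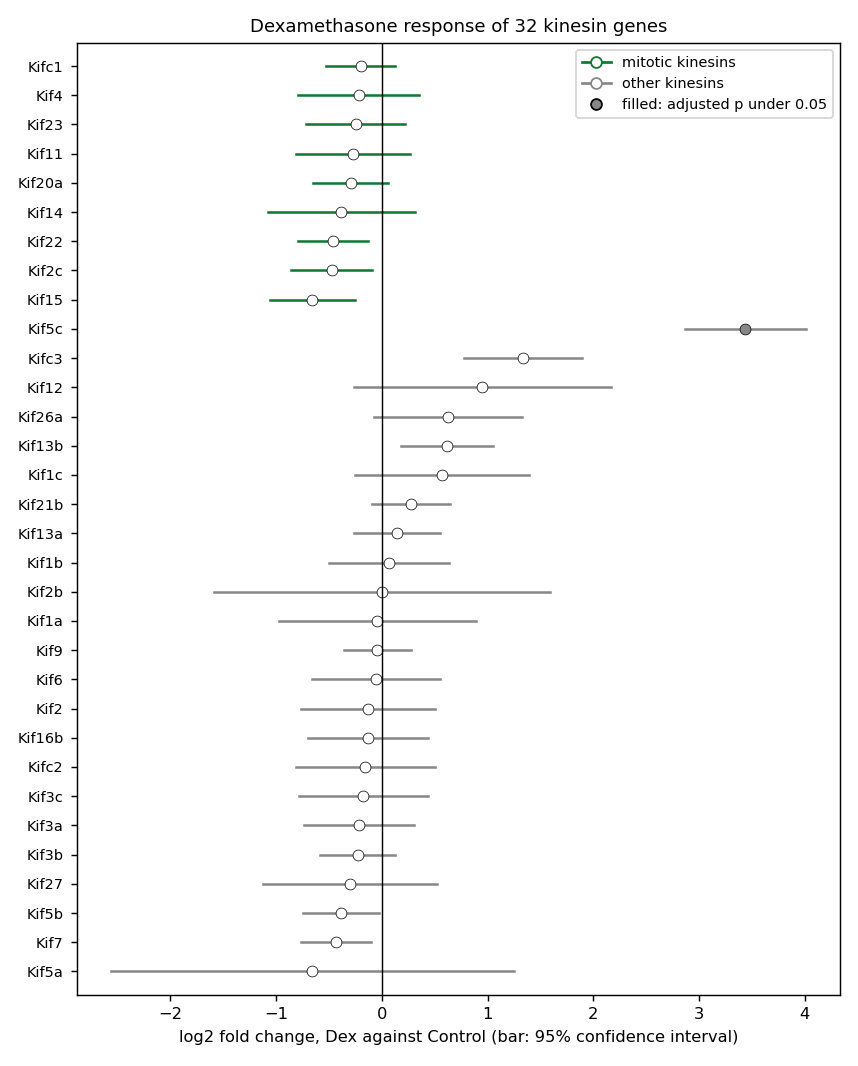
Log2 fold change, Dex over Control, with its 95% confidence interval from limma for 32 kinesin genes, one point per gene from its brightest probe, colored by class (Kif21a is left out, since no array had it well above background). Kif5c stands at 3.44, and the 9 mitotic kinesins all lie below 0, with intervals that reach 0 for all but Kif15, Kif2c and Kif22.

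The unadjusted limma p was under 0.05 for 9 kinesin genes. In the lower direction it was under 0.05 for 3 mitotic genes (Kif15, Kif2c and Kif22) and 2 others (Kif5b and Kif7), against 4.92% of all probes. In the higher direction it was so for no mitotic gene and 4 others (Kif5c, Kifc3, Kif13b and Kif21a), against 5.63%. With each array scaled to its 75th percentile in place of quantile normalization, no kinesin was in the lower group and 2 were in the higher, while all 9 mitotic means stayed lower (median -0.28). The arrays of the groups did not overlap, with Dex below, for 4 mitotic genes (Kif15, Kif2c, Kif22 and Kifc1) and for Kif5b and Kif7, against 4.51% of probes with values on all arrays. With Dex above they did not overlap for 3 genes of the other class (Kif5c, Kifc3 and Kif13b), against 4.60%. The signal-to-noise statistic named in the study's methods, taken at a one-tailed p of at most 0.01, with the null values of all 70 assignments of the arrays pooled over the probes, and a fold change of at least 1.2, called 3 mitotic genes lower and 2 others lower, against 3.20% of probes. It called 3 others higher, against 3.59%.

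Among the mitotic kinesins, Kif15, which helps the spindle keep both its poles, had the lowest Dex level relative to Control. Its log2 levels were 10.66, 10.82, 10.40 and 10.64 in Control and 10.21, 10.10, 9.88 and 9.70 in Dex, so that every Dex array lay below every Control array. The log2 difference was -0.66 ± 0.18 (SE, n = 4 per group) and did not pass after adjustment (limma adjusted p = 0.195). It passed with the normexp background correction (limma adjusted p = 0.0463) and with slide as a random block (0.0336, fitted at a negative correlation of -0.24 within slides), but not under the other 14 alternatives, among them 75th percentile scaling (0.729), the replicate block (0.270) and slide as a fixed block (0.771).

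Kif22, a motor that binds chromosome arms and pushes them toward the spindle equator, read 11.52, 11.55, 11.56 and 11.61 in Control and 11.13, 11.25, 11.13 and 10.88 in Dex. The Control arrays were close together and all Dex arrays lay below them, by a mean of 0.46 on the log2 scale (-0.46 ± 0.14, limma adjusted p = 0.274). It too passed with normexp (limma adjusted p = 0.034) and with slide as a random block (0.0470), and under none of the other 14, which ran up to 0.836. Kif2c, which depolymerizes microtubules at centromeres to correct faulty attachments, read 10.83, 11.07, 10.66 and 10.90 in Control and 10.64, 10.37, 10.38 and 10.16 in Dex. The groups were separated by a narrow margin between Control 3 and Dex 1, and the difference was -0.48 ± 0.17 (limma adjusted p = 0.350).

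Kifc1, a minus-end-directed motor that gathers microtubules at spindle poles, read 14.01, 14.03, 14.01 and 14.25 in Control and 13.93, 13.76, 13.99 and 13.82 in Dex. Its groups did not overlap, although Dex 3 fell just short of the 3 lower Control arrays, and the difference was small (-0.20 ± 0.14, limma adjusted p = 0.700). Its second probe gave -0.17 with overlapping groups.

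The 2 motors of cytokinesis at the central spindle had overlapping groups. Kif20a, which carries the chromosomal passenger complex to the central spindle, read 12.36, 12.37, 12.29 and 12.69 in Control and 12.29, 12.10, 12.11 and 12.04 in Dex. Only Dex 1 reached the lowest Control array (difference -0.29 ± 0.15, limma adjusted p = 0.575). Kif23, the motor of the centralspindlin complex, read 11.29, 11.06, 11.28 and 11.55 in Control and 10.95, 10.66, 11.38 and 11.20 in Dex, where Dex 3 and Dex 4 lay within the Control range (-0.25 ± 0.20, limma adjusted p = 0.732). Without Dex 2 the difference of Kif23 was -0.12.

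In the remaining 3 mitotic genes the Dex arrays divided the other way, with Dex 3 and Dex 4 below all Control arrays and Dex 1 and Dex 2 not below them. Kif11, the motor that slides spindle microtubules apart, read 8.41, 8.39, 8.41 and 8.81 in Control and 8.55, 8.56, 8.13 and 7.68 in Dex. Kif4, a chromosome-bound motor that also shapes the central spindle, read 9.91, 9.83, 9.83 and 10.16 in Control and 10.18, 10.03, 9.41 and 9.22 in Dex. Kif14, which acts late in cytokinesis, read 4.99, 4.90, 4.51 and 5.03 in Control and 4.99, 4.97, 3.85 and 4.08 in Dex. The differences of these 3 genes were -0.28 ± 0.23, -0.22 ± 0.25 and -0.39 ± 0.30, with limma adjusted p-values of 0.745, 0.813 and 0.724. Single arrays moved them by more than 1.5 times, since with 1 array left out they ran from -0.39 to -0.094 (Kif11) and from -0.38 to -0.057 (Kif4), both weakest without Dex 4, and from -0.56 to -0.18 (Kif14), weakest without Dex 3. With normexp the difference of Kif14 was -0.097. Dex 1 and Dex 2 were also the arrays with the fewest probes well above background, and the part of that difference in these values was not tested.

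**Figure D2:**
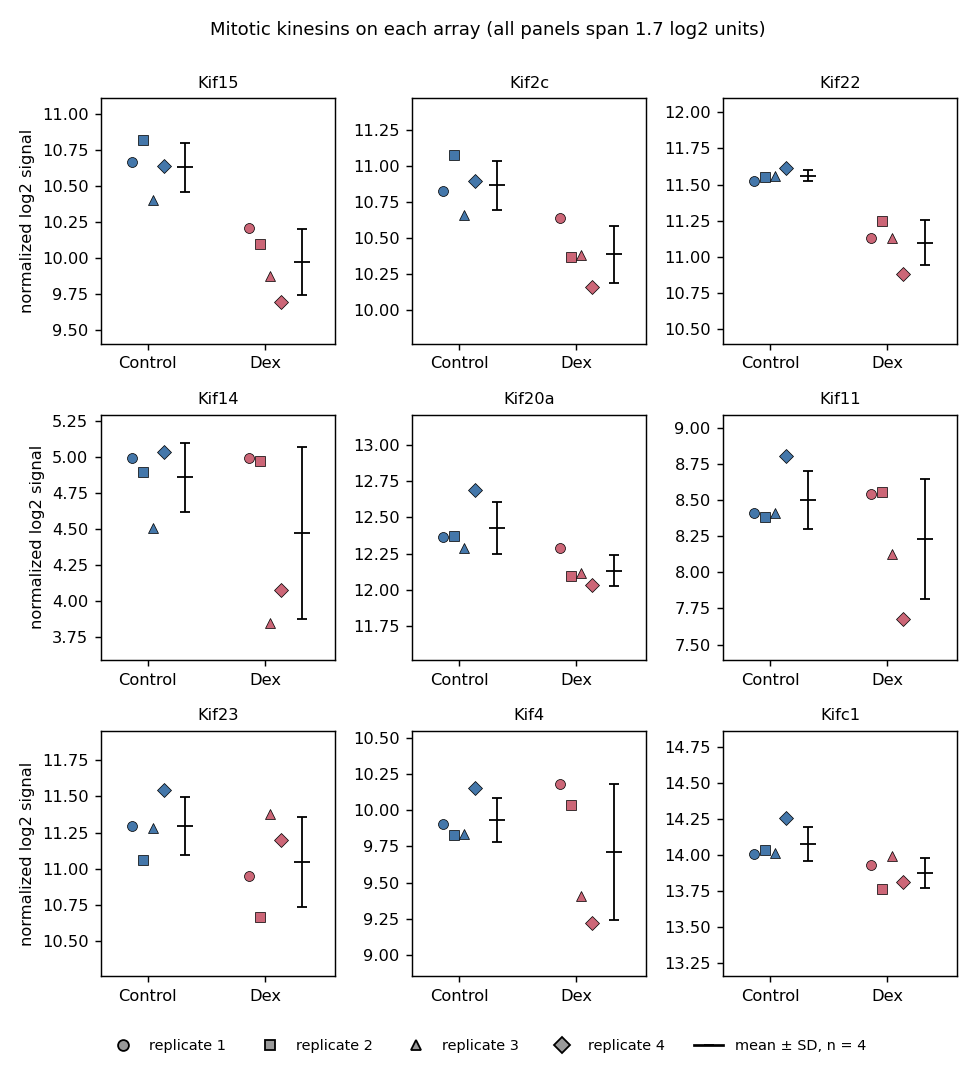
Log2 normalized intensity on each array for the 9 mitotic kinesin genes, brightest probe, with Control and Dex arrays side by side and the group mean and SD. Dex arrays lie wholly below Control for Kif15, Kif2c, Kif22 and Kifc1, and reach into the Control range for the other 5 genes.

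On the slide that held both groups, Dex 3 was below Control 1 for 8 of the 9 mitotic genes, with differences from -1.14 (Kif14) to 0.08 (Kif23). Over all probes the median difference of this pair was -0.092, and 7 of the 9 genes lay below it. Kifc1 did not, at -0.017 for the brightest probe and 0.095 for the second. Per array, the median deviation of the mitotic genes from their own Control means was -0.04, -0.04, -0.10 and 0.18 in Control and -0.15, -0.31, -0.43 and -0.70 in Dex. The Dex medians were thus all below the Control medians, with Dex 4 the farthest. For the 24 other kinesins the medians were -0.10, -0.01, 0.04 and 0.06 in Control and 0.02, 0.23, 0.07 and 0.41 in Dex, which overlapped. In RNA from whole cultures, fewer cells of a type and less RNA per cell cannot be told apart. Of the thymocyte markers 4 were lower in Dex, Ptcra and Rag1 the most, and 2 were higher. The part of cell composition in the lower mitotic means was not tested.

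**Figure D3:**
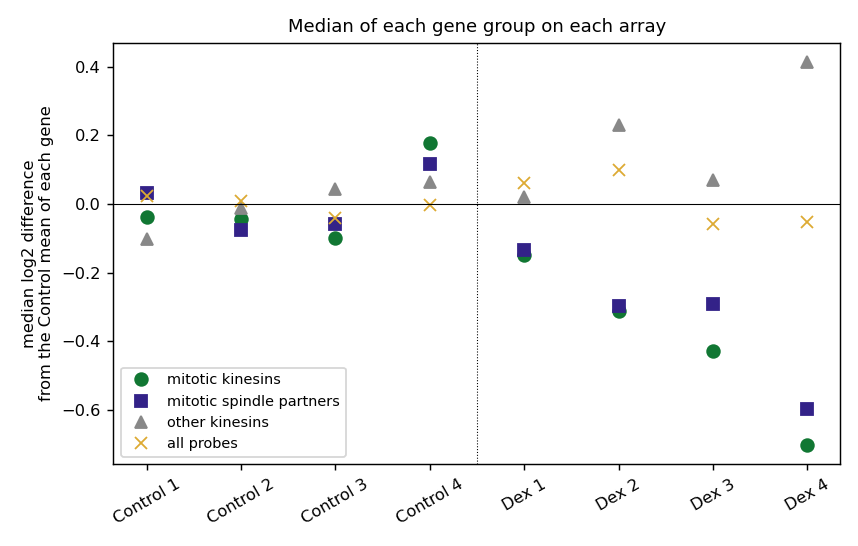
Median deviation from each gene's Control mean, in log2 units, on each of the 8 arrays for the mitotic kinesins, the other kinesins, the mitotic spindle partners and all probes. The mitotic kinesins and the spindle partners lie below 0 on every Dex array, while all probes stay between -0.06 and 0.10.

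The spindle and chromosome partners of these motors (30 listed, 28 on the array) were measured beside them. Of these, 26 were lower in Dex and 2 higher (Bub1b and Ccnb1), with a median log2 difference of -0.38. None passed the adjusted threshold, 10 had an unadjusted limma p under 0.05, all of them lower (4.92% of all probes), and 10 had every Dex array below every Control array (4.51% of probes with values on all arrays). The 3 with the lowest p were Cdk1, the kinase that starts mitosis (-0.64, limma adjusted p = 0.131), Top2a, which untangles chromosomes (-0.55, 0.218), and Tpx2, which nucleates spindle microtubules (-0.53, 0.226).

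Promoters of cell cycle genes often hold the CHR element, TTTGAA, and the NF-Y box, CCAAT. Both were looked for on either strand in the 300 bases from 250 before to 50 after each start site, in RefSeq sequence of the build GRCr8. The promoter set that was searched held windows for 24 of the 33 kinesin genes, 8 mitotic (9 windows, as Kif2c has a pair of starts) and 16 others. Kif14, Kif13b, Kif21b, Kif26a, Kif2b, Kif5a, Kif7, Kifc2 and Kifc3 were not among them. The CHR letters stood in 5 of 9 mitotic windows (55.6%), in 0 of 16 others and in 18.3% of all 33469 promoters. The NF-Y letters stood in 6 of 9 mitotic windows (66.7%), in 4 of 16 others (25%) and in 37.5% of all promoters. The 5 windows with the CHR letters, the only such kinesin windows, are given to show where the letters lie. They run from 110 bases before to 5 after the start site. The CHR and NF-Y letters are in capitals (TTCAAA and ATTGG where they lie on the opposite strand).
Kif15, chr8:131479294-131479408, plus strand: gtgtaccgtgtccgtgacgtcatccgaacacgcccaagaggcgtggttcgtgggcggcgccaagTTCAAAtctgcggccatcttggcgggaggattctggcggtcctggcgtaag
Kif22, chr1:191080874-191080988, minus strand: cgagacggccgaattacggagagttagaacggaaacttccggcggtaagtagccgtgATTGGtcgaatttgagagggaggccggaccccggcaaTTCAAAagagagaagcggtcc
Kif23, chr8:71320580-71320694, minus strand: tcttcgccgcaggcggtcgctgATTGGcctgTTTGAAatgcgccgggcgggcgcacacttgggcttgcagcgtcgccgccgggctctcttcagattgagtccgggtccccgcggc
Kif4, chrX:69761773-69761887, plus strand: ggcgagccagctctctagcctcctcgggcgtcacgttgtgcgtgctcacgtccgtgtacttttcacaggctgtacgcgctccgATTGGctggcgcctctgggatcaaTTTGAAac
Kifc1, chr20:5000819-5000933, plus strand: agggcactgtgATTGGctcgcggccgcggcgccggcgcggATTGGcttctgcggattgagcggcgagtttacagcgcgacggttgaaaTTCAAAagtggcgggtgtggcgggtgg
In these stretches the CHR letters lie close to the start site in Kif22, Kif4 and Kifc1, and all but Kif15 carry NF-Y letters as well. Of their genes, Kif15, Kif22 and Kifc1 had groups that did not overlap, whereas the groups of Kif23 and Kif4, with the same letters, overlapped. Kif2c, whose groups did not overlap, had neither the CHR nor the NF-Y letters in its windows. A match is a description of the letters and not evidence of binding.

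Kif5c, a heavy chain of the conventional kinesin that moves cargo along microtubules, rose in every Dex array. Its log2 levels were 3.66, 4.32, 4.14 and 4.25 in Control and 7.85, 7.87, 7.37 and 7.04 in Dex, with group means of 4.09 ± 0.30 and 7.53 ± 0.40 (SD, n = 4). All 4 Dex arrays lay far above all 4 Control arrays, and 3 of the 4 Control arrays were well above background. The log2 difference was 3.44 ± 0.25 (SE; 95% confidence interval 2.87 to 4.01), a 10.8-fold rise (limma adjusted p = 0.000998). On the slide that held both groups it was 3.71. With slide as a fixed block, which leaves only that pair of arrays to estimate the difference, the adjusted p was 0.159, and with the normexp background correction the log2 difference was 1.44 (adjusted p = 0.00119).

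Kif5c was read by 1 probe, at chr3:30621228-30621287 in the build rn3. The first 30 of its 60 bases are given to identify what was measured.
Kif5c probe: acaggagaggctcagctctgattataacaa
No other probe on the array shared its full sequence. Because glucocorticoids act through a DNA-binding receptor, its promoter was searched for the glucocorticoid response element and for its half-site, AGAACA. The full element stood in none of the kinesin windows and in 0.0149% of all promoters. This half-site stood in 1 of 9 mitotic windows (Kif20a) and in 1 of 16 others (Kif5c), against 20.7% of all promoters. The 250 bases before the start of Kif5c are shown with the half-site, reading TGTTCT from the opposite strand, in capitals.
Kif5c, chr3:54441057-54441306, plus strand: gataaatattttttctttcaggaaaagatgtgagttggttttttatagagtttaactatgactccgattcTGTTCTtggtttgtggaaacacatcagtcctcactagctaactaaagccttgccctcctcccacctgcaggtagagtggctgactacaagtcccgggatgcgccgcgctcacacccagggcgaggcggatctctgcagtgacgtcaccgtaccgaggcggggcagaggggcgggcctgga
The half-site lies 180 bases before the start site, and an absent match says only that the letters are not in this window.

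Kif5c is known mainly from neurons, so the 6 neuron markers were measured beside it. The log2 of their summed intensity ran from 5.68 to 6.49 over the Control arrays and from 5.62 to 6.25 over the Dex arrays, with 5 of 6 lower in Dex. Most of them were near background, since Snap25 was well above it on 0 arrays, Syt1 and Rbfox3 on 1 Control array each, Map2 on 2 Control arrays and 1 Dex array, and Nefl on 3 and 2. Nefm alone was well above background on all 8 arrays, with a log2 difference of 0.14 (limma adjusted p = 0.883). On the same summed scale, macrophage markers (7 of 7 on the array) ran from 12.09 to 12.56 in Control and 11.98 to 13.05 in Dex (4 higher and 3 lower, C1qb at 0.84 with limma adjusted p = 0.330 and overlapping groups), stromal markers (6 of 6, Dcn not well above background on any array) from 9.64 to 10.23 and 9.21 to 10.62, and B cell markers (3 of 4) from 6.21 to 7.04 and 6.21 to 7.23. Erythroid markers, 2 of 4 on the array, ran from 7.95 to 10.33 and 7.94 to 11.16. Taken gene by gene, 5 of 6 stromal markers had a higher mean in Dex (median log2 difference 0.45), as did 2 of 3 B cell markers (0.28) and both erythroid markers (0.55), in each case with overlapping groups, and their part in the kinesin values was not tested. In none of the 6 marker lists did a gene pass the adjusted threshold.

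Neither of the other Kif5 heavy chains passed the test. Kif5b, which is expressed in most cell types, read 13.28, 13.47, 13.75 and 13.53 in Control and 13.07, 13.03, 13.22 and 13.15 in Dex. Every Dex array was below every Control array, with a difference of -0.39 ± 0.16 (limma adjusted p = 0.423), but on the slide with both groups it was -0.06, and its other 2 probes gave -0.20 and -0.19 with overlapping groups. Kif5a, a neuronal heavy chain, read 5.15, 5.77, 6.93 and 6.45 in Control and 4.09, 3.80, 6.48 and 7.30 in Dex. It was low on Dex 1 and Dex 2 and within or above the Control range on Dex 3 and Dex 4 (-0.66 ± 0.83, limma adjusted p = 0.839).

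Kifc3, a minus-end-directed motor that acts at cell junctions and the Golgi, was nearest to the threshold after Kif5c. It read 5.04, 5.03, 4.77 and 5.35 in Control and 6.64, 6.61, 5.75 and 6.51 in Dex, with every Dex array above every Control array. The log2 difference was 1.33 ± 0.24, or 2.52-fold (limma adjusted p = 0.0610). Without Dex 3, whose level was lower than that of the other Dex arrays, it was 1.54 (limma adjusted p = 0.0236). Dex 3 is the only Dex array on a slide with a Control array, so without it slide and group cannot be told apart. On that slide the Kifc3 difference was 0.71. Kifc3 passed as well with normexp (0.51, limma adjusted p = 0.0382), with dim probes left out (0.0335) and with slide as a random block (1.44, 0.00784). It did not pass with 75th percentile scaling (0.0710), the replicate block (0.119), slide as a fixed block (0.771) or without any one of the other 7 arrays (0.142 to 0.215).

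Kif13b, a motor that carries membrane proteins, read 6.69, 6.59, 6.85 and 6.52 in Control and 6.98, 7.09, 7.59 and 7.45 in Dex. The groups did not overlap (0.62 ± 0.19, limma adjusted p = 0.265), and the difference was 0.37 with normexp and 0.90 on the slide with both groups. Kif7, which works at the tip of the primary cilium in Hedgehog signaling, read 11.45, 11.59, 11.67 and 11.60 in Control and 11.26, 10.97, 11.20 and 11.14 in Dex, with all Dex arrays below (-0.43 ± 0.14, limma adjusted p = 0.310). On the slide with both groups the difference of Kif7 was -0.25.

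**Figure D4:**
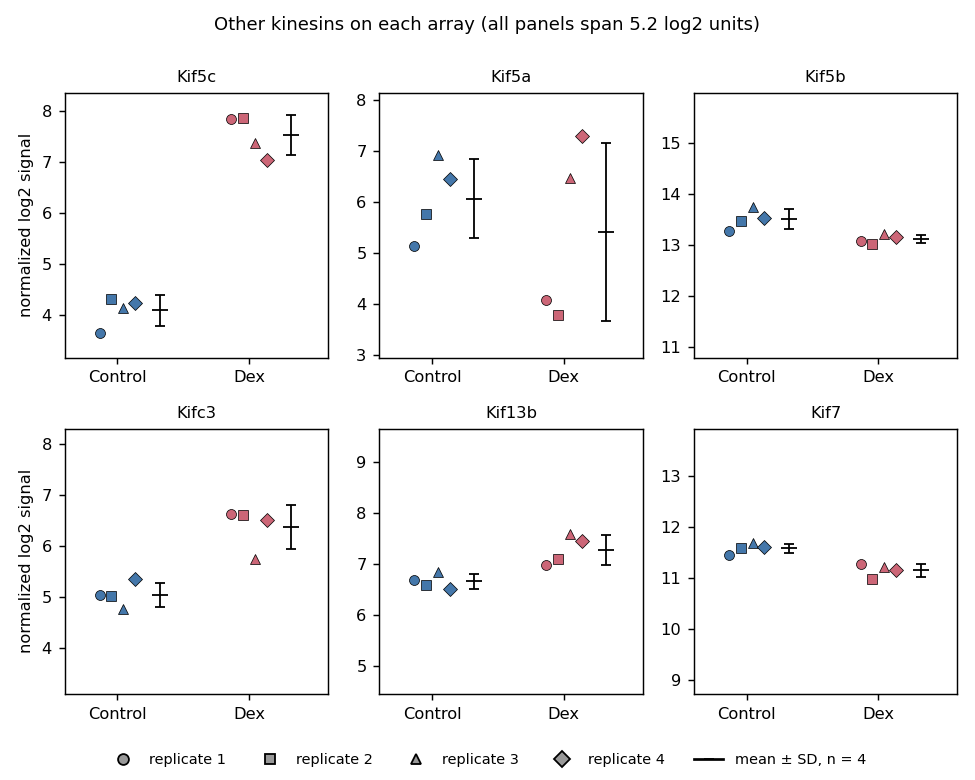
Log2 normalized intensity on each array for 6 kinesins outside the mitotic class, with Control and Dex arrays side by side and the group mean and SD. Kif5c, Kifc3 and Kif13b lie higher in Dex and Kif7 and Kif5b lower, without overlap, while Kif5a overlaps.

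Kif21a, a transport motor, read 1.68, 1.69, 2.35 and 1.79 in Control and 2.13, 2.50, 2.43 and 2.53 in Dex, but it was not well above background on any array, so no fold is given for it. The remaining 18 kinesins, Kif5a among them, had overlapping groups and log2 differences from -0.66 to 0.95 (limma adjusted p from 0.539 to 0.999), with 7 higher and 11 lower. Of these, 11 were well above background on all 8 arrays, with differences from -0.23 to 0.57. Kif1c, a transport motor, showed the highest difference of them, at 10.90, 10.75, 11.44 and 11.21 in Control and 10.97, 11.08, 12.35 and 12.17 in Dex, where Dex 3 and Dex 4 stood above all Control arrays (0.57, and 1.45 on the slide with both groups). The Kif3 motors, which drive transport into cilia, differed by -0.22 (Kif3a), -0.23 (Kif3b, group means of 11.75 and 11.53) and -0.18 (Kif3c). On the slide with both groups, the values were -0.75, 0.047 and 0.57, so that Kif3b and Kif3c turned in direction. The microtubule depolymerases Kif2 and Kif2b, which also act in mitosis, differed by -0.13 ± 0.28 and 0.00 ± 0.69. Kif2b was well above background on only 2 Control and 2 Dex arrays, and its 95% confidence interval ran from -1.58 to 1.59.

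The partners of the transport motors gave no gene past the adjusted threshold. Light chains and cargo adaptors (17 of 18 on the array) had 4 higher and 13 lower genes and a median of -0.10. Their lowest p belonged to Trak2, a mitochondrial adaptor (-0.66, limma adjusted p = 0.286), Klc1, a kinesin light chain (0.35, 0.410), and Mapk8ip1, a cargo adaptor (0.37, 0.623). Dynein and dynactin, the motor of the opposite direction (23 of 24), had 9 higher and 14 lower and a median of -0.12. Their lowest p belonged to Dynll1, a dynein light chain (-0.91, limma adjusted p = 0.0582), Dynlt1, another (0.72, 0.0727), and Dctn3, a dynactin subunit (-0.45, 0.281). Tubulins, the subunits of the tracks (13 of 17), had 5 higher and 8 lower and a median of -0.10, led by Tubb4b (-0.66, limma adjusted p = 0.110), Tube1 (-0.72, 0.217) and Tubg1 (-0.45, 0.422). Unadjusted p-values were under 0.05 for 1 higher and 1 lower adaptor, 1 higher and 2 lower dynein or dynactin genes and 3 lower tubulins, where the shares of all probes were 5.63% higher and 4.92% lower.

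For 11 kinesin genes the array holds several probes, 25 in all. Kif16b, an endosome motor, was the gene whose probes parted most. Its brightest probe differed by -0.13, whereas the second read 5.73, 5.55, 5.53 and 5.84 in Control and 6.93, 7.63, 6.05 and 6.55 in Dex, all Dex arrays above all Control arrays (1.13 ± 0.32, limma adjusted p = 0.223). The probes lie apart on chromosome 3 of the build rn3, the brightest at chr3:130874614-130895618, a span longer than its 60 bases, and the second at chr3:131119438-131119497. Their first 30 bases are shown to tell them apart.
Kif16b brightest probe: ggacacacttagagaaatacctcagggagt
Kif16b second probe: agaccttcacctatgacttctctttttatt
The direction for Kif16b therefore rests on the choice of probe. The sign also differed, by smaller amounts and with overlapping groups, between the probes of Kif3b (-0.23 for the brightest, 0.11 and -0.26) and Kif9 (-0.04 and 0.22), all well above background on all 8 arrays, and of Kif1b (0.07, -0.08 and -0.42), of which only the brightest was. The second probe of Kif1a, like both of Kif21a, was not well above background on any array, and no difference is given for it. Kif11, with a mitotic role, had a second, dimmer probe with a difference of -0.03, against -0.28 for the brightest.

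**Figure D5:**
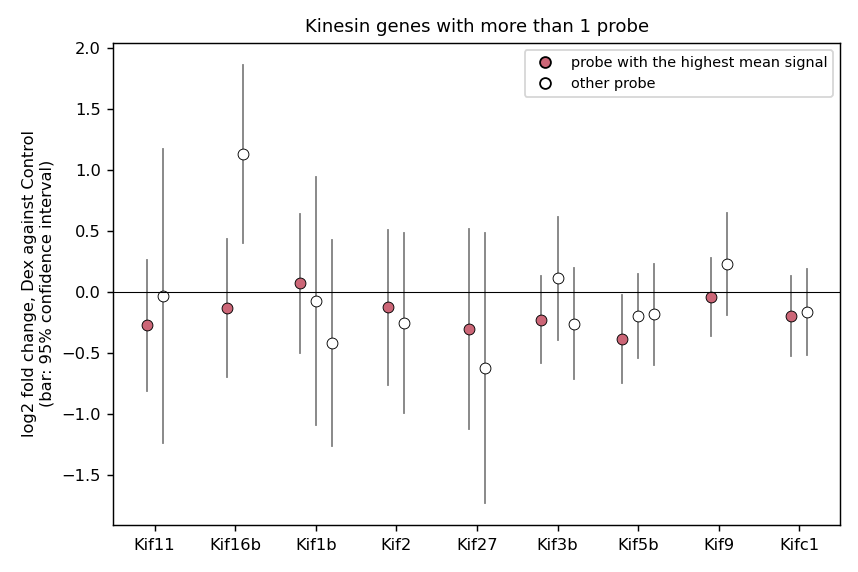
Log2 fold change, Dex over Control, with its 95% confidence interval for each of 21 probes of the 9 kinesin genes that have several probes well above background on at least 1 array, the brightest probe of a gene set apart from the rest. The probes of Kif16b lie on opposite sides of 0, at -0.13 and 1.13.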

How the data were processed

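RNA of untreated and dexamethasone-treated thymocytes was read on 1-color Agilent Whole Rat Genome arrays, 4 Control and 4 Dex. Spot intensities were extracted by the authors using Feature Extraction 9.5.3.1, which subtracts the background, and deposited these intensities together with flags for spots well above background and for outliers, and a log2 table of normalized values. The authors' probe positions are on the build rn3.

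Control spots and outlier-flagged spots were left out. The log2 processed intensity was quantile normalized and the spots of a probe were joined by median polish (41012 probes, 16 missing values), which correlated at 0.999999 or above with the deposited log2 table on every array. Control and Dex were compared with limma 3.58.1 in R 4.3.3 (lmFit, eBayes, two-sided, Benjamini-Hochberg over all probes, threshold 0.05). The brightest probe over all arrays stood for a gene. No array held a saturated kinesin probe. The number of arrays limits the precision.

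The members, lists and motifs were chosen with earlier results of these data known. Values on each array were given for Kif5c, the mitotic kinesins and every other kinesin with an unadjusted p under 0.05. Outside that rule they were also given for Kif5a, Kif1c, Kif19, Kif20b and the second probe of Kif16b. Of each gene list the 3 genes with the lowest p were named. The main fit was unpaired, and the labels' numbers were used to pair the arrays only in the replicate block. Deviations of same-numbered Control and Dex arrays from their group means correlated at 0.40, 0.13, 0.55 and 0.18. Control 1 with Dex 2 (0.40), Control 3 with Dex 4 (0.39) and Control 2 with Dex 1 (0.19) correlated too. These values therefore do not settle whether the numbers mark pairs. Alternatives were 75th percentile scaling, the deposited table, normexp (offset 50), dim probes left out, the replicate block, slide as a fixed or random block, each array left out, the mean over a gene's probes, and the signal-to-noise statistic, its p-values taken from values pooled over probes. Of the models, only the unpaired limma fit was run on simulated data. The simulated noise was independent with no slide effect, so it cannot show how slides affect the calls.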

Additional observations from a re-analysis of the deposited data

Results flagged for a closer look

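Of 66 groups of 4 arrays, 6 held an array whose gap to the nearest of the others exceeded, as a share of the group's whole range, the 95% critical value of Dixon's test, and chance flags about 1 group in 20. Kif11 read 8.81 on Control 4, above 8.39 to 8.41 on the other Control arrays (gap 0.933 of the range). Kifc1 read 14.25 on Control 4, above 14.01 to 14.03 (0.899). Both of these mitotic kinesins were thus highest on the same Control array. Kifc3 read 5.75 on Dex 3, below 6.51 to 6.64 (0.855), and Kif21b, a motor of neurons and lymphocytes, read 6.20 on Dex 3, below 6.49 to 6.54 (0.842). Kif1a read 3.49 on Dex 4, above 2.04 to 2.12 (0.949), and was well above background on 1 Dex array. Kif21a read 2.35 on Control 3, above 1.68 to 1.79 (0.83), where it was not well above background.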

How the results depend on the processing

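The number of kinesin genes called was 1 (Kif5c) with the main settings. It was 4 with normexp and 4 with slide as a random block at a correlation of -0.24 within slides (Kif5c and Kifc3 higher, Kif15 and Kif22 lower in both), 2 with dim probes left out (Kif5c and Kifc3), 0 with slide as a fixed block, 8 with the signal-to-noise statistic and 9 at an unadjusted p of 0.05. Leaving out 1 array at a time gave 1 to 2, with 2 only without Dex 3 (Kifc3). The probes called over the whole array numbered 319, and 166 with 75th percentile scaling, 915 with normexp (497 higher and 418 lower, against 231 and 88), 562 with dim probes left out, 81 with the replicate block, 1 with slide as a fixed block, 1838 with slide as a random block and 96 to 249 with 1 array left out. With the replicate block the kinesin call did not change (Kif5c adjusted p = 0.0381). The median of the other kinesins was -0.04, moved to 0.26 with slide as a fixed block and ranged from -0.08 to 0.03 with 1 array left out, while that of the mitotic kinesins ranged from -0.39 to -0.21. All 9 mitotic kinesins were lower under each alternative for which the class was refitted, except slide as a fixed block, where 8 were, and the log2 fold change of Kif23 was reversed at 0.083. With 75th percentile scaling no kinesin had an unadjusted p under 0.05 in the lower direction. The cause of these changes was not tested, except that the fixed block leaves 1 pair of arrays for the difference and that leaving out dim probes tests fewer probes. Over 14 named genes and 16 settings, 214 of 224 values kept direction and side of the threshold. Only Kif5c passed with the main settings, so for the other genes the same side means still short of the threshold. The count takes no account of size. With slide as a fixed block, for example, Kifc1 went from -0.20 to -0.017 and Kif5b from -0.39 to -0.057. Signal over background limits Kif14, Kif5c and the dimmer probes.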

Other observations

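Further probes belong to kinesin genes by their current RefSeq names but carry other names on the array. Kif20b, the mitotic kinesin named Mphosph1 there, read 9.15, 9.02, 8.999 and 9.25 in Control and 8.97, 8.90, 8.52 and 8.04 in Dex, all Dex arrays below (-0.50, limma adjusted p = 0.503). Kif18a, which aligns chromosomes, had 2 probes with differences of -0.32 and -0.54 and overlapping groups (limma adjusted p = 0.725 and 0.469). Kif19, a motor that sets the length of cilia, read 4.46, 4.08, 5.25 and 5.29 in Control and 4.64, 4.28, 8.61 and 11.30 in Dex. It stood far above the other arrays on Dex 3 and Dex 4 alone, and its difference was not past the threshold (2.44 ± 1.47, SE, limma adjusted p = 0.641). Kif4b, a close relative of the mitotic Kif4, was well above background on all 8 arrays and differed by 0.08 (limma adjusted p = 0.899), and Kif26b by -0.15 (0.900), both with overlapping groups. Kif12 read 5.85 on Dex 2 and no more than 3.91 on any other array.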
